A study of Homo sapiens with 12 samples.

Results

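The kynurenine pathway and the breakdown of tryptophan were examined in 4 stable lung adenocarcinoma lines through 10 genes, TDO2, IDO1, IDO2, KYNU, KMO, AFMID, HAAO, QPRT, IL4I1 and KYAT1. They were taken by symbol from a table of 60623 genes, in which each of the 10 has 1 row. All lines derive from A549, a human lung adenocarcinoma line, and were made with lentivirus and selected with hygromycin. V cells received the empty vector pLV-EF1a-IRES-Hygro, WT cells wild-type HA-tagged AHR, SA cells HA-AHR with the S489A mutation and SD cells HA-AHR with the S489D mutation, all driven by the EF1a promoter. S489 is the serine of the aryl hydrocarbon receptor (AHR) that the study describes as phosphorylated by PLK1, so that SA cannot be phosphorylated there and SD carries an acidic residue in its place. The A549 cells kept their own AHR gene, and each construct is represented by 1 line with 3 biological replicates, so a difference between lines is a difference between these 4 lines.

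Most tryptophan that is not used for protein is broken down through kynurenine. TDO2, IDO1 and IDO2 open the indole ring, AFMID releases kynurenine, and kynurenine is then hydroxylated by KMO, cleaved by KYNU or turned into kynurenic acid by KYAT1. HAAO and QPRT lead the last steps towards NAD, and IL4I1 oxidizes tryptophan by a separate route. The pathway is known in tumours because kynurenine, kynurenic acid and products of IL4I1 can bind AHR, the receptor that was overexpressed here.

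KYNU was the 1 gene of the 10 that passed the test in any comparison, and the 250 bases before its RefSeq start site (chr2:142877414-142877663, plus strand, GRCh38.p14) are therefore shown. The stretch before the IL4I1 start site (chr19:49929597-49929637, minus strand, GRCh38.p14) is shown beside it as an example. It holds the core of the AHR response element, given in capitals, as does the AFMID window, which is not shown.
KYNU upstream: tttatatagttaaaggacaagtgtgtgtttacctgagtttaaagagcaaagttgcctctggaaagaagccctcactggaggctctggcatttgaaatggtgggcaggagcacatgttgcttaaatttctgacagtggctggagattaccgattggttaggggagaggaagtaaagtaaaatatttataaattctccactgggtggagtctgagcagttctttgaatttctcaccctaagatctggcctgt
IL4I1 upstream: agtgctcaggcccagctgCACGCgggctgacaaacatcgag
The core GCGTG was searched on both strands in windows from 250 bases before to 50 bases after the start site, and the capitals in the IL4I1 line are its reverse complement, 115 bases before the start. RefSeq windows were matched for 8 of the 10 genes, TDO2, KYNU, KMO, AFMID, HAAO, QPRT, IL4I1 and KYAT1. The core occurred in the windows of AFMID (15 bases before the start) and IL4I1, and 36.5% of all 35116 windows hold it. The longer form TNGCGTG, which contains the core, was found in none of the 8 genes and in 5.51% of all windows. The antioxidant element TGACNNNGC, present in 13.3% of windows, was found for AFMID and in 1 of 3 KYAT1 windows, and the interferon-stimulated response element, present in 3.57%, in 1 of 3 KYAT1 windows. The KYNU window held no match to any of these 4 motifs. These matches describe letters in a window and do not show binding.

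The 12 libraries held between 7844045 and 11765576 expected counts, so that 3 counts, the limit used for a gene without counts, correspond to between 0.255 and 0.382 CPM (expected counts scaled by library size). Library sizes were scaled by the trimmed mean of M values. The AHR constructs were checked through the sum of AHR and ENSG00000283321, an annotated gene that took counts in the AHR lines and none in V. This sum was between 65.8 and 74.3 CPM for V, between 450.4 and 479.9 for WT, between 371.1 and 406.5 for SA and between 289.6 and 304.8 for SD. The lines therefore matched their labels as AHR overexpressors, at unequal levels of AHR, and the mutation and the AHR level cannot be told apart in comparisons among WT, SA and SD. Of 5 epithelial markers, KRT8, KRT18 and CDH1 were abundant, while KRT19 had at most 5 and EPCAM at most 17 counts in a library. By contrast, the alveolar type II markers summed to between 2.89 and 4.61 CPM and the leukocyte markers to between 1.72 and 4.32 CPM. Nearly all of the first sum came from NAPSA, with between 22 and 45 counts in a library, and SFTPC, the defining surfactant gene, had at most 3. Nearly all of the second came from ITGAM, an integrin of myeloid cells, with between 16 and 44 counts in a library. PTPRC, the pan-leukocyte marker, had no count in 11 libraries and 2 counts in the other one.

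Across the 12 libraries the 10 genes formed 3 tiers. KYNU, KYAT1, KMO and AFMID were well expressed, QPRT, TDO2 and IL4I1 were low, and IDO1, IDO2 and HAAO were at or near 0. Per kilobase of exon union, the mean level was 11.99 CPM for KYNU, 5.94 for KYAT1, 5.12 for KMO and 2.81 for AFMID. On the same scale QPRT had 0.597, TDO2 0.323 and IL4I1 0.238. KYNU alone made up 44.4% of the summed level of the 10 genes (between 37.7% and 48.8% per library). The exon union of KYNU is 17442 bases against a longest coding sequence of 1395, so the length used decides the size of its lead. Per kilobase of coding sequence KYNU reached 149.9 CPM and 74.5% of the sum, ahead of KMO at 20.9, KYAT1 at 13.8 and AFMID at 12.2. KYNU had the highest level on both scales, while KMO and KYAT1 changed places. By CPM, KYNU stood above 95% of the genes kept for testing over the 12 libraries.

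**Figure D1:**
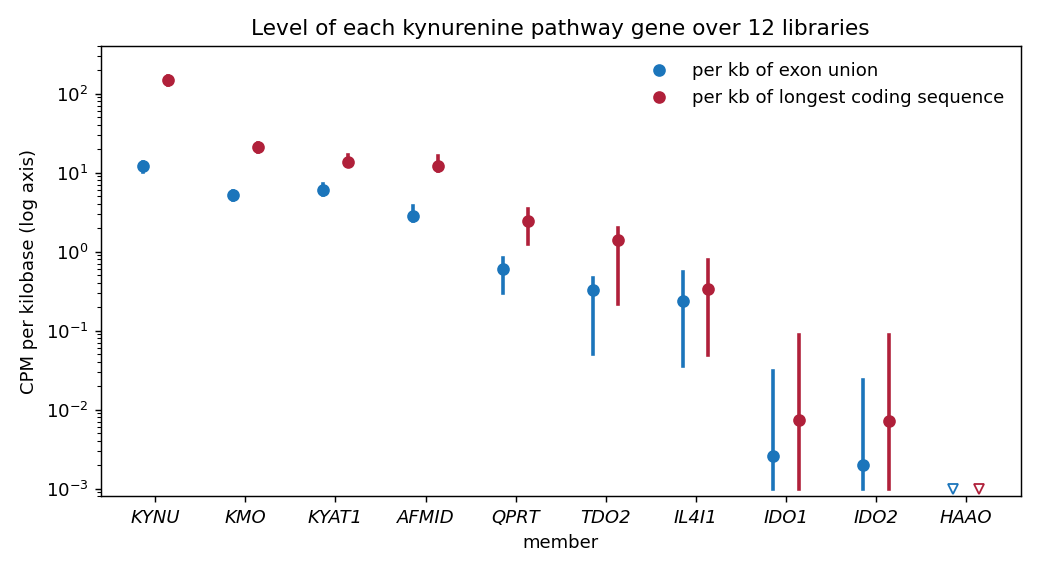
Level of the 10 kynurenine pathway genes over 12 libraries, as CPM per kilobase of exon union or of longest coding sequence on a log axis, with points at the mean and lines from the lowest to the highest library. KYNU leads on both scales, and HAAO, drawn as an open triangle at the bottom, had no count in any library.

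Of the ring-opening enzymes, TDO2 was detected at a low level, and IDO1 and IDO2 were at or near 0. IDO1, the dioxygenase that interferon gamma induces in many cells, had 1 count in 1 SD library and 0 in the other 11. IDO2, its neighbour on chromosome 8 (chr8:39934614-40016391, plus strand, GRCh38), had 1 count in 1 V library and 0 in the other 11. TDO2, the dioxygenase best known from liver, was the main dioxygenase transcript detected. Its counts were 18, 21 and 11 for V, 19, 21 and 15 for WT, 19, 19 and 3 for SA, and 17, 16 and 23 for SD. The 4 lines overlapped, and the third SA library was the lowest of all 12. Log2 fold changes of TDO2 ran from -0.48 (SA against V) to 0.64 (WT against SA), with edgeR adjusted p between 0.646 and 0.956. Both of these values turned on that library: without it they were 0.01 and 0.16.

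IL4I1, the amino acid oxidase, was also rare. It had 5, 1 and 4 counts for V, 4, 1 and 4 for WT, 12.22, 16 and 4 for SA, and 11, 6 and 4 for SD. The highest libraries were those of SA and SD, but each of these lines also had a library at 4 counts, so all lines overlapped. IL4I1 had enough counts to be tested in SD against SA alone, where the log2 fold change was -0.48 with an edgeR adjusted p of 0.873. That value was -0.32, -0.14 and -0.88 without the first, the second and the third SA library, and -0.97 and -0.14 without the first and the third SD library. With every gene of at least 1 count tested, SA exceeded V by 1.46 on the log2 scale, with an unadjusted p of 0.0399 and an edgeR adjusted p of 0.327, and WT against SA gave -1.54, with 0.0365 and 0.794. Exons of IL4I1 share 336 bases (13.5%) with NUP62 on the same strand, which had between 1310 and 1808 counts, so the few IL4I1 counts are uncertain.

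AFMID, the formamidase that frees kynurenine, was highest in SA. Its CPM was 9.98, 12.3 and 10.8 for V, 10.4, 9.74 and 11.9 for WT, 15.1, 11.6 and 12.98 for SA, and 10.2, 9.76 and 10.2 for SD. All 3 SD libraries were below all 3 SA libraries, whereas the other pairs of lines overlapped. SD was below SA by a log2 fold change of -0.39 (SE 0.15), with an unadjusted p of 0.0134 and an edgeR adjusted p of 0.428. WT against SA gave -0.31 (unadjusted p = 0.0492, edgeR adjusted p = 0.680) and SA against V 0.26 (edgeR adjusted p = 0.362). None of these passed the threshold of 0.05 after adjustment over all genes.

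KMO, the kynurenine hydroxylase on the way to quinolinic acid and NAD, had 30.4, 34.3 and 34.2 CPM for V, 28.5, 31.7 and 27.4 for WT, 29.8, 32.5 and 26.8 for SA, and 30.0, 31.0 and 29.2 for SD. The mean was highest in V, and every AHR line overlapped it. Its log2 fold changes against V were -0.17 in WT, -0.15 in SA and -0.13 in SD, with edgeR adjusted p of 0.355, 0.3903 and 0.513. Among the AHR lines the KMO difference lay between -0.02 and 0.04, and the widest of these 95% intervals ran from -0.22 to 0.18. KMO shares 1691 exonic bases (28.4%) with OPN3 on the other strand, which had between 462.1 and 840.1 counts. Whether the counting used strand is not given in the sources used here, so reads of the pair may not be told apart in that stretch.

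KYNU, the kynureninase that cleaves kynurenine and 3-hydroxykynurenine, differed most clearly. The gene lies on chromosome 2 (chr2:142877657-143055833, plus strand, GRCh38). Its CPM was 177.0, 181.0 and 207.9 for V, 211.9, 205.6 and 210.9 for WT, 202.6, 218.5 and 215.0 for SA, and 212.5, 232.9 and 234.3 for SD. As line means these are 188.6 ± 16.8 for V, 209.5 ± 3.38 for WT, 212.0 ± 8.35 for SA and 226.6 ± 12.2 for SD (± standard deviation, n = 3). Every SD library was above every V library and every WT library, whereas the third V library reached into the range of WT and SA. KYNU rose in SD against V by 0.27 on the log2 scale (SE 0.06, 95% interval from 0.14 to 0.39), a fold of 1.20, with an edgeR adjusted p of 0.00894. In WT against V it was 0.15 higher (SE 0.05, unadjusted p = 0.00997, edgeR adjusted p = 0.117) and in SA against V 0.17 higher (SE 0.06, unadjusted p = 0.00709, edgeR adjusted p = 0.0775), neither past the threshold. These 3 comparisons share the V libraries and are not independent of each other.

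Single libraries decided these calls. The difference between SD and V lost its call without the first V library (edgeR adjusted p = 0.108), the second V library (0.0797) or the second SD library (0.0738), with the direction kept. Conversely, without the third V library KYNU passed the test in WT against V (edgeR adjusted p = 0.0110) and in SA against V (0.0135), and without the first SA library it also passed in SA against V (0.0301), as it did with every gene of at least 1 count tested (0.0357). The lead of SD over the other AHR lines was not shown. SD against WT gave 0.11 (95% interval from -0.001 to 0.23, unadjusted p = 0.0520, edgeR adjusted p = 0.477), SD against SA 0.10 (edgeR adjusted p = 0.677) and WT against SA -0.02 (edgeR adjusted p = 0.957). In order of level the lines were SD, SA, WT and V, and only the ends of that order differed past the threshold.

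**Figure D2:**
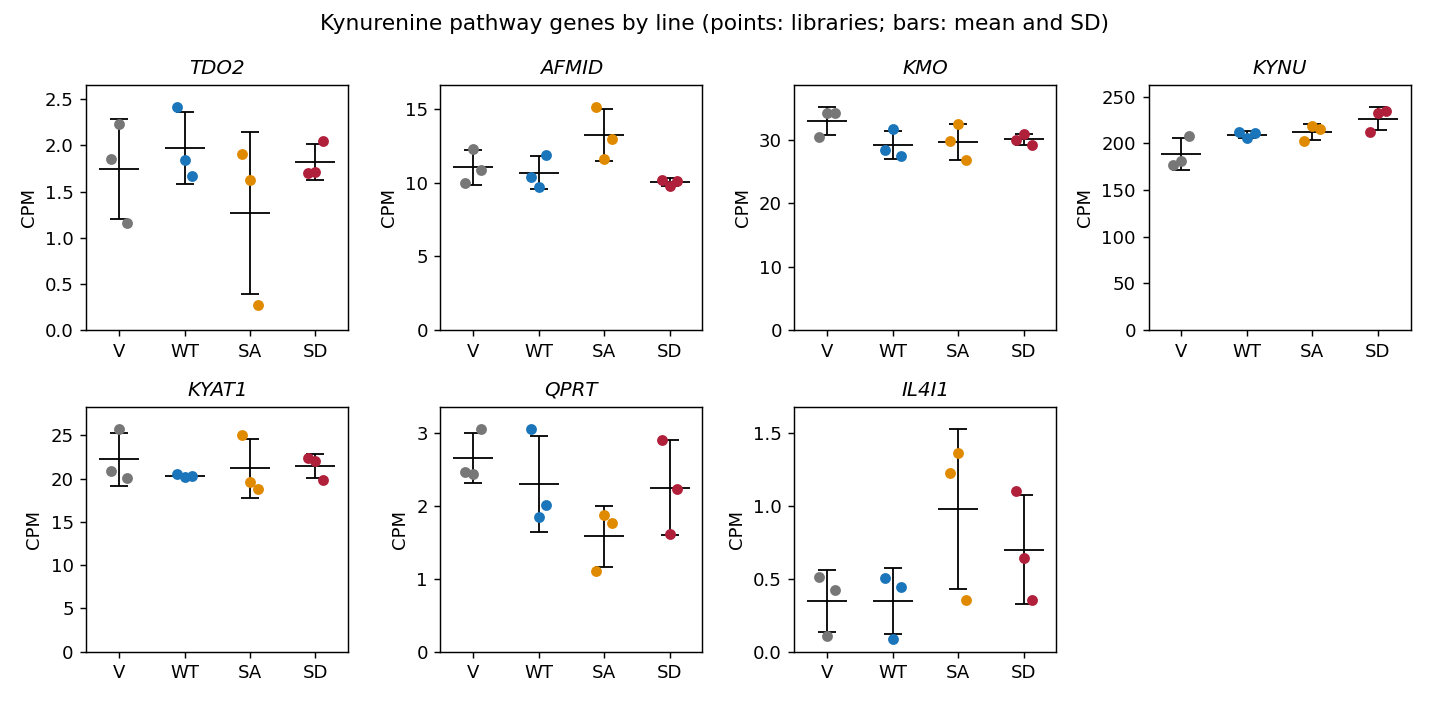
CPM of 7 kynurenine pathway genes in each library of V, WT, SA and SD, with bars for the mean and standard deviation of 3 libraries and vertical axes that start at 0. KYNU in SD (212.5 to 234.3) lies above V (177.0 to 207.9), and the other 6 genes overlap between V and each AHR line except QPRT in SA.

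Levels of other markers moved with KYNU between V and the AHR lines. The 5 epithelial markers summed to between 6050 and 6300 CPM for V, 4830 and 4860 for WT, 4660 and 4820 for SA, and 4400 and 4630 for SD. Nearly all of this sum came from KRT8 and KRT18. KRT8, KRT18 and CDH1 each fell in all 3 comparisons with V, but CDH1 was not lowest in SD. Its mean CPM was 169.8 for V, 112.0 for WT, 112.3 for SA and 126.1 for SD. In SD against WT CDH1 was 0.17 higher on the log2 scale (unadjusted p = 0.0130, edgeR adjusted p = 0.279). KRT8, a keratin of simple epithelia, changed by -0.33 in WT, -0.35 in SA and -0.42 in SD on the log2 scale, with edgeR adjusted p of 3.04e-06 or less. The 5 fibroblast markers summed to between 10.5 and 15.1 CPM in V and between 6.86 and 11.6 in the AHR lines, and COL1A1, a fibrillar collagen, fell by 0.79 in WT against V and by 0.60 in SA against V (edgeR adjusted p = 0.00649 and 0.0278). In SD against V, where KYNU was called, COL1A1 gave -0.50 (edgeR adjusted p = 0.0928). THY1, the other fibroblast marker tested, gave 0.41, -0.28 and -0.06 in WT, SA and SD against V, with edgeR adjusted p between 0.705 and 0.967. COL1A2 and DCN had no count in any library, and PDGFRB had between 0 and 11. All libraries come from A549 lines, so these markers describe A549 cells and not other cell types. The part of these markers in the KYNU difference was not tested. In bulk RNA a change in all cells and a change in some of them cannot be told apart. Over the 12 libraries the genes whose log2 CPM followed KYNU most closely, of 15452 compared, were AK4 (r = 0.940), CAT (r = 0.933) and RNF24 (r = 0.923). AK4 is a mitochondrial adenylate kinase and CAT is catalase. These values describe 12 libraries that share line and depth.

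KYAT1, an aminotransferase that forms kynurenic acid, was level across the lines. Its CPM was 20.8, 25.8 and 20.1 for V, 20.6, 20.2 and 20.3 for WT, 25.1, 19.7 and 18.8 for SA, and 22.4, 22 and 19.8 for SD. The second V and first SA libraries were the highest and each lay within a line that overlapped the others. Log2 fold changes were between -0.13 and 0.07, with edgeR adjusted p between 0.626 and 0.984. KYAT1 shares 2055 exonic bases (57.3%) with ENSG00000286112, a gene on the same strand with between 5.9 and 41.6 counts, and summing both rows changed no KYAT1 call.

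The genes of the late NAD branch were weak or absent. HAAO, which makes the precursor of quinolinic acid, had no count in any of the 12 libraries, which allows at most 0.255 to 0.382 CPM per library. Against that limit KYNU was at least 86.9-fold higher per kilobase of exon union in every library. QPRT, which turns quinolinic acid into nicotinic acid mononucleotide, had 24, 23 and 29 counts for V, 24, 21 and 18 for WT, 11, 22 and 20 for SA, and 29, 15 and 25 for SD. In CPM all 3 SA libraries (1.102, 1.88 and 1.77) lay below all 3 V libraries (2.47, 2.44 and 3.05). The difference was -0.73 on the log2 scale (SE 0.35), with an unadjusted p of 0.0490 and an edgeR adjusted p of 0.247. Elsewhere QPRT lay between -0.23 and 0.50, with edgeR adjusted p between 0.748 and 0.997.

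Counted together, 6 of the 10 genes had enough counts for the test in each comparison (TDO2, AFMID, KMO, KYNU, KYAT1 and QPRT), and IL4I1 made 7 in SD against SA. IDO1, IDO2 and HAAO were tested nowhere. In WT against V 0 of 6 passed the adjusted threshold against 5.24% of all genes tested, 1 (KYNU) had an unadjusted p under 0.05 against 17.4%, and 0 were without overlap between the lines against 21.9%. For SA against V 0 passed against 7.17%, 2 (KYNU and QPRT) had an unadjusted p under 0.05 against 20%, and 1 (QPRT, lower) was without overlap against 23.8%. For SD against V 1 (KYNU) passed against 5.41%, the same 1 had an unadjusted p under 0.05 against 17.4%, and it was also the 1 without overlap against 21.4%. Over the 6 members the median log2 fold change was -0.09, -0.11 and -0.09 in these comparisons, beside 0.0018, -0.0024 and 0.0030 for all genes tested. DESeq2 called 0, 0 and 1 of them.

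Among the AHR lines, which ask about S489, no member passed. SD against WT gave 0 of 6 against 0.708% of all genes, 0 with an unadjusted p under 0.05 against 10.6%, and 1 (KYNU, higher) without overlap against 16%. In SD against SA the counts were 0 of 7 against 0.22%, 1 (AFMID) against 8.52% and 1 (AFMID, lower) against 13.6%. WT against SA gave 0 of 6 against 0.0803%, 1 (AFMID) against 7.31% and 0 against 12.8%. DESeq2 called 0 in each of the 3, with 0, 1 and 0 members at an unadjusted p under 0.05. Median log2 fold changes of the members were 0.02, 0.02 and -0.02, beside -0.0008, 0.0007 and -0.0015 for all genes. With 6 or 7 genes tested, no excess over the shares of all genes can be read from these counts.

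**Figure D3:**
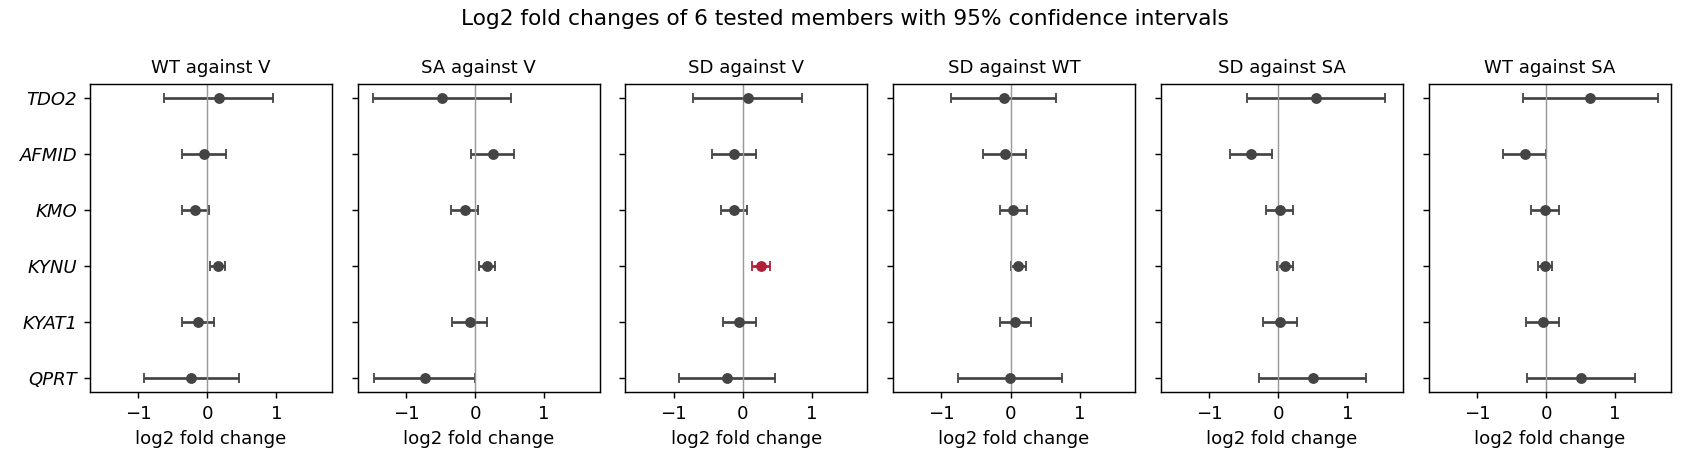
Log2 fold changes with 95% confidence intervals for 6 kynurenine pathway genes in the 6 comparisons of the lines, with the gene that passed an edgeR adjusted p of 0.05 in red. KYNU in SD against V (0.27, from 0.14 to 0.39) is the single red point, and the intervals of TDO2 and QPRT, the lowest of the 6, are the widest.

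Other enzymes of the pathway were measured next. AADAT, KYAT3 and GOT2, which share the aminotransferase step with KYAT1, were tested in all 6 comparisons, and ACMSD, which diverts the pathway away from quinolinic acid, had at most 4 counts. None of the 3 passed in any comparison by edgeR, where between 0.0803% and 7.17% of all genes tested did. GOT2, the mitochondrial aspartate aminotransferase, had 230.7, 228.4 and 230.9 CPM for V, 236.3, 237.9 and 222.8 for WT, 222.9, 235.9 and 245.9 for SA, and 198.7, 219.8 and 211.5 for SD. All 3 SD libraries lay below those of every other line. Its log2 fold change was -0.13 against V, -0.15 against WT and -0.16 against SA, with unadjusted p of 0.0262, 0.0157 and 0.0123 and edgeR adjusted p of 0.201, 0.305 and 0.425. AADAT, with mean CPM of 10.5 for V, 9.81 for WT, 12.1 for SA and 11.9 for SD, had edgeR adjusted p between 0.515 and 0.986. All its SA and SD libraries lay above all V and WT libraries. KYAT3 had 14.9, 12.6, 13.7 and 14.03 in the same order, with edgeR adjusted p between 0.377 and 0.982. Its WT libraries lay below those of V and SD. In SD against WT all 3 enzymes were without overlap, beside 16% of all genes tested. Over the 6 comparisons that share ran from 12.8% to 23.8%, and 3 genes are too few to read an excess.

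NAD can also be made from nicotinamide and nicotinic acid, without tryptophan. A list of 8 genes covered NAD synthesis and nicotinamide use, and not only the routes without tryptophan. All 8 (NADSYN1, NMNAT1, NMNAT2, NMNAT3, NAPRT, NAMPT, NMRK1 and NNMT) were tested. In WT against V 1 rose, in SA against V 1, in SD against V 2 and in SD against WT 1, with none lower and none called in SD against SA or WT against SA. Of all genes tested, 5.24%, 7.17%, 5.41% and 0.708% were called in either direction in the first 4 of these comparisons. NAMPT, the rate-limiting enzyme of the nicotinamide salvage route, had 109.8, 109.5 and 117.3 CPM for V, 150.5, 160.4 and 148.8 for WT, 148.2, 167.3 and 160.5 for SA, and 163.3, 175.2 and 168.7 for SD. All 9 AHR libraries were above all 3 V libraries. NAMPT rose on the log2 scale by 0.45 in WT (SE 0.05, edgeR adjusted p = 1.15e-06), 0.50 in SA (SE 0.06, 1.13e-06) and 0.59 in SD (SE 0.06, 1.01e-07). NNMT, which methylates nicotinamide, had 81.2, 78.2 and 89.8 CPM for V, 72.8, 86.6 and 77.3 for WT, 88.7, 99.5 and 87.7 for SA, and 100.9, 115.6 and 114.5 for SD. The SD libraries were above all others. NNMT rose in SD by 0.41 against V (SE 0.07, edgeR adjusted p = 3.01e-04) and by 0.48 against WT (SE 0.07, 7.84e-04), while SD against SA gave 0.26 (edgeR adjusted p = 0.182). The fall of the epithelial marker sum given above moved with the NAMPT difference too, and its part was not tested.

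**Figure D4:**
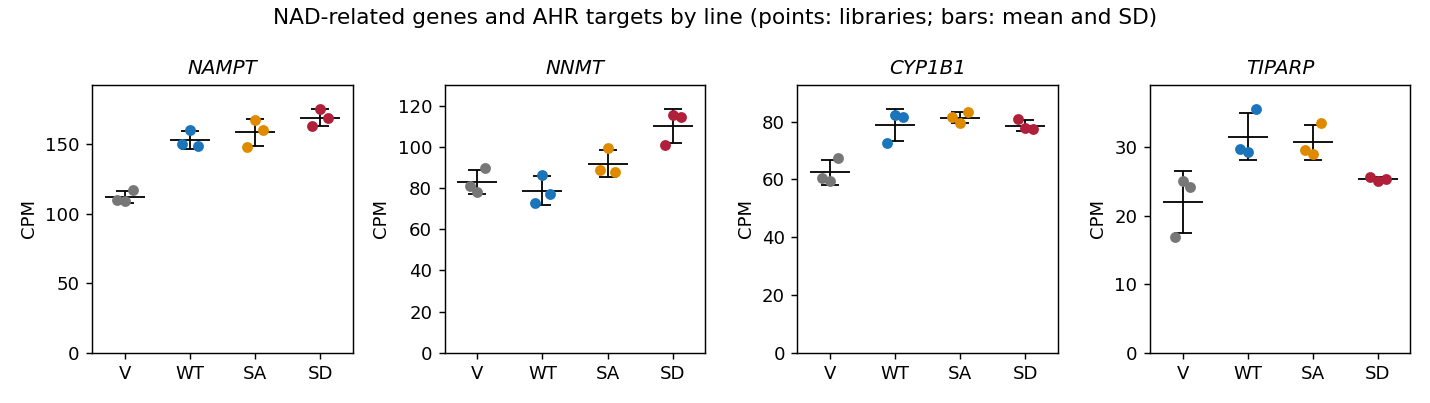
CPM of NAMPT, NNMT, CYP1B1 and TIPARP in each library of V, WT, SA and SD, with bars for the mean and standard deviation of 3 libraries and vertical axes that start at 0. NAMPT is between 109.5 and 117.3 in V and between 148.2 and 175.2 in the AHR lines, and NNMT is highest in SD.

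No gene tested for the supply or the other fates of tryptophan passed the threshold. Of 10 genes for amino acid transport and tryptophanyl-tRNA synthesis, 6 were tested and 0 passed in any comparison by edgeR, with 0 or 1 at an unadjusted p under 0.05 in each. Of all genes tested, between 0.0803% and 7.17% passed in a comparison, and between 7.31% and 20% had an unadjusted p under 0.05. With so few genes tested here and in the next list, no difference from these shares can be read. SLC7A5, the light chain of the main transporter of large neutral amino acids, had mean CPM of 1522 for V, 1593 for WT, 1567 for SA and 1470 for SD. Of 8 genes of the serotonin and indole routes, 1 had enough counts, and it passed in no comparison by edgeR, with 0 at an unadjusted p under 0.05. That gene was MAOA, the monoamine oxidase, with mean CPM of 8.45 for V, 6.72 for WT, 7.47 for SA and 7.76 for SD. Its widest difference from V, in WT, was -0.34 on the log2 scale (95% interval from -0.75 to 0.06, edgeR adjusted p = 0.397).

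Interferon gamma signalling, the classical inducer of IDO1, was followed through 10 genes, of which 8 or 9 were tested. JAK1, a kinase of the interferon receptors, fell by 0.19 on the log2 scale in SA against V (edgeR adjusted p = 0.0326) and by 0.23 in SD against V (0.0112). The call in SA was lost without any 1 of the V libraries or without the first or the third SA library (edgeR adjusted p between 0.0525 and 0.141), and the call in SD without the first (0.0708) or second (0.0577) V library. No other gene of this list passed. In SA against V 1 of 9 genes was thus called, beside 7.17% of all genes tested, and in SD against V 1 of 8, beside 5.41%. With 8 or 9 genes, no excess over these shares can be read. IRF1, a transcription factor that interferon gamma induces, had mean CPM of 22.3 for V, 23.4 for WT, 23.7 for SA and 23.5 for SD. GBP1 and GBP2, at low levels, had higher means in the AHR lines. GBP1 had 1.05 for V, 1.66 for WT, 1.56 for SA and 2.15 for SD, and GBP2 1.60, 2.29, 1.81 and 2.61. In SD against V GBP1 gave 1.02 on the log2 scale (unadjusted p = 0.0354, edgeR adjusted p = 0.239) and GBP2 0.70 (edgeR adjusted p = 0.398).

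Genes known as AHR targets were measured in the same libraries, and what drove their levels was not tested. Of 8, 5 were tested, and 3 rose in WT against V, 3 in SA against V and 1 in SD against V, with none lower and none called among the AHR lines. Over all genes tested, the calls in either direction were 5.24%, 7.17% and 5.41% in the comparisons with V. CYP1B1, a cytochrome P450, rose by 0.34 in WT (edgeR adjusted p = 0.00275), 0.38 in SA (4.75e-04) and 0.34 in SD (0.00333). TIPARP, an ADP-ribosyltransferase that restrains AHR, rose by 0.51 in WT (edgeR adjusted p = 0.00755) and 0.48 in SA (0.00950), while 0.21 in SD was not called (0.413). The first V library, the lowest for TIPARP, bore on the calls in WT and SA. Without it the edgeR adjusted p was 0.103 and 0.113, and without the third WT library or the third SA library 0.0860 and 0.0788. NQO1, a quinone reductase, rose by 0.21 in WT (edgeR adjusted p = 5.11e-04) and 0.21 in SA (0.00230), while 0.15 in SD was not called (0.0941). The other 2 tested targets were not called. AHRR gave -0.28 in WT, -0.73 in SA and -0.69 in SD against V (edgeR adjusted p = 0.746, 0.284 and 0.301). ALDH3A1 gave 0.02, 0.04 and -0.15 in the same order (edgeR adjusted p = 0.849, 0.737 and 0.1065). In SD against WT all 5 tested targets had a negative log2 fold change, as did 7443 of all 14828 genes tested. There 2 had an unadjusted p under 0.05, beside 10.6% of all genes tested. These were TIPARP (-0.31, edgeR adjusted p = 0.192) and ALDH3A1 (-0.17, 0.157). CYP1B1 (-0.007, edgeR adjusted p = 0.987) and NQO1 (-0.06, 0.743) were near 0. With 5 genes tested, no excess over the shares of all genes can be read. CYP1A1, the most used AHR target, had between 0 and 11 counts per library and was too low to compare.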

How the data were processed

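RNA-seq of poly(A)-enriched RNA was available for 12 libraries, 3 biological replicates of each of 4 A549 lines. According to the labels and methods, the authors trimmed reads with Trimmomatic 0.39, mapped them to GRCh38 transcripts with RSEM and deposited expected counts (estimated counts) per gene, unnormalized. The annotation release and the strand setting are not given in the sources used here. A second deposited table, which holds only the authors' own log2 fold changes, p-values and false discovery rates, was not used. Of 60623 genes, 60295 are in GENCODE v44, which gave exon lengths and overlaps, and coordinates are the deposited ones.

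Counts were rounded and every comparison was fitted on the 6 libraries of its lines in R 4.3.3 with edgeR 4.0.16 (filterByExpr with a minimum count of 10, TMM scaling, quasi-likelihood F-test, two-sided). P-values were adjusted by Benjamini-Hochberg over all genes tested, with a threshold of 0.05. Intervals and the limit of 3 counts cover the spread between libraries and counting error, respectively, and p-values measure the spread between replicates of 1 line. The procedure was tested on simulated counts. DESeq2 1.42.0, other filters and scalings, 1 fit over all libraries, a replicate block, and fits without each library were run as alternatives. The 3 libraries of a line were checked for copies, and none were found.

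The 10 genes and the gene lists were chosen with earlier results of these data known. Named genes were the 10 members, AADAT, KYAT3, GOT2 and ACMSD, listed genes past the threshold in any comparison, AHR with ENSG00000283321, genes whose exons overlap a member, and the 3 genes most correlated with each called member. Marker genes and SLC7A5, MAOA, IRF1, GBP1, GBP2, CYP1A1, AHRR and ALDH3A1 were named outside this rule, after their values were seen.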

Additional observations from a re-analysis of the deposited data

How the results depend on the processing

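Alternative settings of the fit and the removal of each library were run for every comparison. The number of members called in SA against V was 0 and became 1 (KYNU) with every gene of at least 1 count tested and 1 with a replicate block. Without single libraries it ran from 0 to 1 in WT against V, from 0 to 1 in SA against V and from 0 to 1 in SD against V. The share of KYNU in the summed level was 37.5% by longest transcript and 74.5% by coding length, the latter chosen after seeing the data, as was the sum of KYAT1 with ENSG00000286112. The QPRT difference in SD against WT turned to 0.00464 with at least 10 counts required. Without single libraries the log2 fold change changed sign for AADAT in SD against SA (-0.0875 to 0.0194), AFMID in WT against V (-0.14 to 0.0358), GOT2 in WT against V (-0.00306 to 0.0432), SA against V (-0.00265 to 0.0689) and WT against SA (-0.0529 to 0.0198), and KMO in SD against WT (-0.00842 to 0.11), SD against SA (-0.0532 to 0.0908) and WT against SA (-0.0891 to 0.0519). It also did for KYAT1 in SA against V (-0.21 to 0.0423), SD against V (-0.12 to 0.065), SD against SA (-0.0572 to 0.15) and WT against SA (-0.13 to 0.0816), and for KYAT3 in SD against V (-0.16 to 0.00255), SD against SA (-0.0683 to 0.16) and WT against SA (-0.22 to 0.0112). The same held for KYNU in WT against SA (-0.0512 to 0.0026), QPRT in SD against WT (-0.23 to 0.23), and TDO2 in WT against V (-0.058 to 0.38), SA against V (-0.87 to 0.0105), SD against V (-0.16 to 0.28) and SD against WT (-0.20 to 0.0535). None of these was called, and the cause was not tested. Over all genes, the count of calls in SD against WT was 105, 252 with every gene of at least 1 count and 245 with the block. In SD against SA it was 33, 153 and 165, in WT against SA 12, 103 and 25 (5 in 1 fit over all libraries and 18 by DESeq2), and in WT against V 774 and 507 with the block. The labels number the replicates without saying that equal numbers belong together. Of 18 correlations between same-numbered libraries, from -0.04 to 0.11, 1 was over 0.1, and 11 matched their own number best. These were all 9 among WT, SA and SD (0.011 to 0.0587) and 2 of 9 with V. A weak pairing among WT, SA and SD is therefore possible, a hint from the data and not from the design. The main fits did not use it. With the replicate block no member was called in SD against WT, SD against SA or WT against SA. Under the replicate block KYNU was called in SA against V (edgeR adjusted p = 0.0261). At this depth IDO1, IDO2 and HAAO could not be compared.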

Other observations

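KYNU and KMO both use kynurenine, and the ratio of their counts within a library does not depend on scaling. This ratio was chosen after the values were seen, so its separation from V and the p-values below are a description only. It was 5.73 ± 0.41 for V, 7.21 ± 0.64 for WT, 7.19 ± 0.74 for SA and 7.54 ± 0.47 for SD (± standard deviation, n = 3). All 9 AHR libraries (6.49 to 8.03) were above all 3 V libraries (5.28 to 6.08). The log2 ratio was higher than for V by 0.33 for WT, 0.33 for SA and 0.40 for SD, each with a two-sided exact permutation p of 0.1, the smallest that 3 against 3 libraries allow, so this design cannot reach 0.05. Among the AHR lines the differences were 0.07 (SD against WT), 0.07 (SD against SA) and 0.0062 (WT against SA), with exact permutation p of 0.6, 0.6 and 1. These 6 comparisons were not adjusted, and the overlap of KMO with OPN3 on the other strand applies here as well.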
